A study of Mus musculus with 6 samples.

Results

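Expression of 10 blood cell genes was followed in RNA from mouse brainstem microglia. They were 5 genes of red cells (Hba-a1, Hba-a2, Hbb-bs, Hbb-bt and Alas2) and 5 genes of neutrophils (S100a8, S100a9, Ngp, Camp and Ltf). They were taken as the rows whose Ensembl identifier carries one of these symbols, and all 10 were found among the 26789 genes measured, in each of 6 libraries. The study asked how a sodium-restricted maternal diet in early gestation alters microglia of the rostral nucleus of the solitary tract, the first brainstem relay for taste. Control mice came from dams on standard chow, and E3–E12 diet mice from dams given sodium-deficient chow and distilled water from embryonic day 3 to 12 and standard chow afterwards. Mice of both sexes were used and were collected on postnatal day 15. C57Bl/6 is the strain the methods name for control mice in other experiments of the study. By the methods, cells were sorted with magnetic beads against CD11b, and each library pooled 6 littermates, with 3 litters per diet. The deposited description names laser microdissection instead, so the isolation is uncertain. A library is therefore a litter, and values of single mice were not analysed here.

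Hba-a1 and Hba-a2 encode the adult alpha chain of hemoglobin, and Hbb-bs and Hbb-bt encode its adult beta chain. Alas2 encodes the erythroid form of the enzyme that starts heme synthesis. S100a8 and S100a9 form calprotectin, an abundant cytosolic protein of neutrophils, which is also made by monocytes. Ngp, Camp and Ltf encode cargo of the secondary granules, which neutrophils fill while they mature in the bone marrow: neutrophilic granule protein, the cathelicidin antimicrobial peptide and the iron-binding protein lactoferrin. CD11b, the product of Itgam, is carried by microglia and also by neutrophils and monocytes, whereas mature red cells lack it. None of the 10 genes is a marker of microglia, and vessels of brain tissue hold blood unless they are rinsed.

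The libraries differed in depth and in cell markers before any blood gene is considered. Normalized counts, which are read counts scaled by the authors to be comparable between libraries, summed to 9671119, 17204618 and 11910787 in the 3 controls. In the 3 E3–E12 diet libraries they summed to 9407141, 11192984 and 14656956. Values are given here and throughout in the order of replicates 1, 2 and 3. Low values fell in steps, and the smallest step, the approximate value of 1 sequenced fragment, was 0.776, 1.95 and 0.549 in the controls and 1.11, 1.12 and 0.942 in E3–E12 diet mice. Control replicate 2 thus had the largest total of normalized counts but only about 8800000 fragments. The other controls had about 12500000 and 21700000, and the E3–E12 diet libraries about 8500000, 10000000 and 15600000. Control replicate 2 also had the most genes listed at 0, 10640 of 26789. Mitochondrial genes made up 15.5%, 6.69% and 18.5% of normalized counts in the controls and 13.8%, 10.2% and 23.0% in E3–E12 diet mice, with the replicate 2 libraries the 2 lowest. A list of 20 microglia genes made up 1.58%, 3.86% and 3.48% of normalized counts in the controls and 1.59%, 3.04% and 3.42% in E3–E12 diet mice. Csf1r, the receptor that microglia need to survive, was the highest of them at 48984, 280071 and 106427 in the controls and 53504, 108590 and 140889 in E3–E12 diet mice. Sparc and Cx3cr1 followed, and Itgam, the gene of the sorted marker, was measured at 8307 or more in every library. One of the 20, Tyrobp, was listed at 0 in all 3 E3–E12 diet libraries and at 182, 59.5 and 1494 in the controls.

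Red cell genes were low in all 6 libraries. Hba-a2 was measured at 44.3, 0 and 93.7 normalized counts in the controls and 17.2, 0 and 35.6 in E3–E12 diet mice. Hba-a1 was measured at 29.5, 0 and 45.8 in the controls and 10.2, 0 and 24.5 in E3–E12 diet mice. Both alpha chain genes were thus listed at 0 in control replicate 2 and E3–E12 diet replicate 2, and Hba-a2 exceeded Hba-a1 in each of the other 4 libraries. Hbb-bs was measured at 25.7, 3.34 and 54.3 in the controls and 8.76, 2.31 and 11.4 in E3–E12 diet mice. Its values in the replicate 2 libraries of both diets correspond to about 1.71 and 2.06 fragments. All 3 genes had the same order of libraries, with control replicate 3 highest, then control replicate 1, E3–E12 diet replicate 3 and E3–E12 diet replicate 1. Hbb-bt was the lowest of the 10 genes by mean, at 0, 1.94 and 12.7 in the controls and 0, 0 and 18.0 in E3–E12 diet mice. Its mean of 5.44 was under the minimum of 10 for testing.

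Alas2 had another order of libraries, at 70.0, 5.92 and 12.3 normalized counts in the controls and 17.9, 0 and 6.02 in E3–E12 diet mice. Control replicate 1 was highest for Alas2, whereas control replicate 3 was highest for Hba-a1, Hba-a2 and Hbb-bs. This contrast depended on the scaling, a check added after the data were seen. It held with equal totals, but per 1000 counts of 20 microglia genes control replicate 1 was highest for all 4 genes, with Hba-a2 at 0.290 there and 0.226 in control replicate 3. Alas2 made up 41.3% of the summed red cell genes in control replicate 1 and 5.61% in control replicate 3. The diets overlapped in every one of the 5 genes. In 4 of the 5 red cell genes the replicate 2 libraries of both diets were the 2 lowest, as in 11.5% of the 18007 genes tested. Summed over the 5 genes, red cell counts were 169, 11.2 and 219 in the controls and 54.1, 2.31 and 95.5 in E3–E12 diet mice. The sum never exceeded 0.00184% of a library. In bulk samples, fewer cells of a type and less RNA per cell cannot be told apart, for these genes and for all those that follow.

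The alpha and beta chain genes lie in pairs of near-identical copies, so the split of reads within each pair is uncertain. In the GRCm38 assembly Hba-a1 lies at chr11:32283511-32284465 and Hba-a2 at chr11:32296489-32297298, both on the plus strand. Hbb-bs lies at chr7:103826534-103828096 and Hbb-bt at chr7:103812524-103813996, both on the minus strand. Of all 50-base windows of their transcripts, 72.3% for Hba-a1, 89.3% for Hba-a2, 53.2% for Hbb-bs and 58.3% for Hbb-bt occur in another gene's transcript, in each case its own partner's. For Alas2 at chrX:150547375-150570638 the share was 11.5%, mostly with Apex2. None of the windows of the 5 neutrophil genes was shared (0%). The coding sequences of Hba-a1 and Hba-a2 are 429 bases long and 99.8% identical, with 1 substitution, C381T from Hba-a1 to Hba-a2, counted from 1 at the A of the start codon. Those of Hbb-bs and Hbb-bt are 444 bases long and 99.8% identical, with 1 substitution, C417T from Hbb-bs to Hbb-bt. The 60 coding bases around each substitution are shown because a fragment lying wholly in coding sequence can be assigned within a pair only if it covers the capital base. They are given 5′ to 3′ on the coding strand, at chr11:32284313-32284372 and chr11:32297130-32297189 for the alpha pair and chr7:103826665-103826724 and chr7:103812656-103812715 for the beta pair.
Hba-a1: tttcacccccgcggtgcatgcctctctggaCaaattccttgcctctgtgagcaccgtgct
Hba-a2: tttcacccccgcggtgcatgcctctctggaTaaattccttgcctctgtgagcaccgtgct
Hbb-bs: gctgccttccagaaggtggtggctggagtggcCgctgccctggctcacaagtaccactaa
Hbb-bt: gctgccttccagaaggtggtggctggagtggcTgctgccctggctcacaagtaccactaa

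Neutrophil genes were detected in every library and stood highest in control replicate 2. S100a9 was measured at 245, 1289 and 190 normalized counts in the controls and 308, 234 and 246 in E3–E12 diet mice. S100a8, its partner in calprotectin, was measured at 99.7, 573 and 66.5 in the controls and 105, 84.6 and 145 in E3–E12 diet mice. Control replicate 2 was above the next library 4.19-fold for S100a9 and 3.95-fold for S100a8. Ngp was measured at 156, 997 and 120 in the controls and 149, 156 and 166 in E3–E12 diet mice. Outside control replicate 2, Ngp spanned no more than 1.38-fold, the narrowest such range of the 5 genes. Ltf was measured at 36.4, 222 and 29.6 in the controls and 52.2, 39.3 and 52.1 in E3–E12 diet mice. Camp was measured at 34.3, 142 and 13.2 in the controls and 27.0, 48.4 and 24.6 in E3–E12 diet mice. Control replicate 2 was 6.02-fold above the next library for Ngp, 4.26-fold for Ltf and 2.93-fold for Camp. Control replicate 3 was the lowest library for all 5 genes, a count without a share over all genes beside it. The diets overlapped in each. The 5 genes lie on 2 chromosomes of GRCm38, with S100a8 at chr3:90668978-90670035 (plus strand) and S100a9 beside it at chr3:90692632-90695721 (minus strand). Camp lies at chr9:109847379-109849617 (minus strand), Ngp at chr9:110419747-110423012 and Ltf at chr9:111019271-111042767 (both plus strand).

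**Figure D1:**
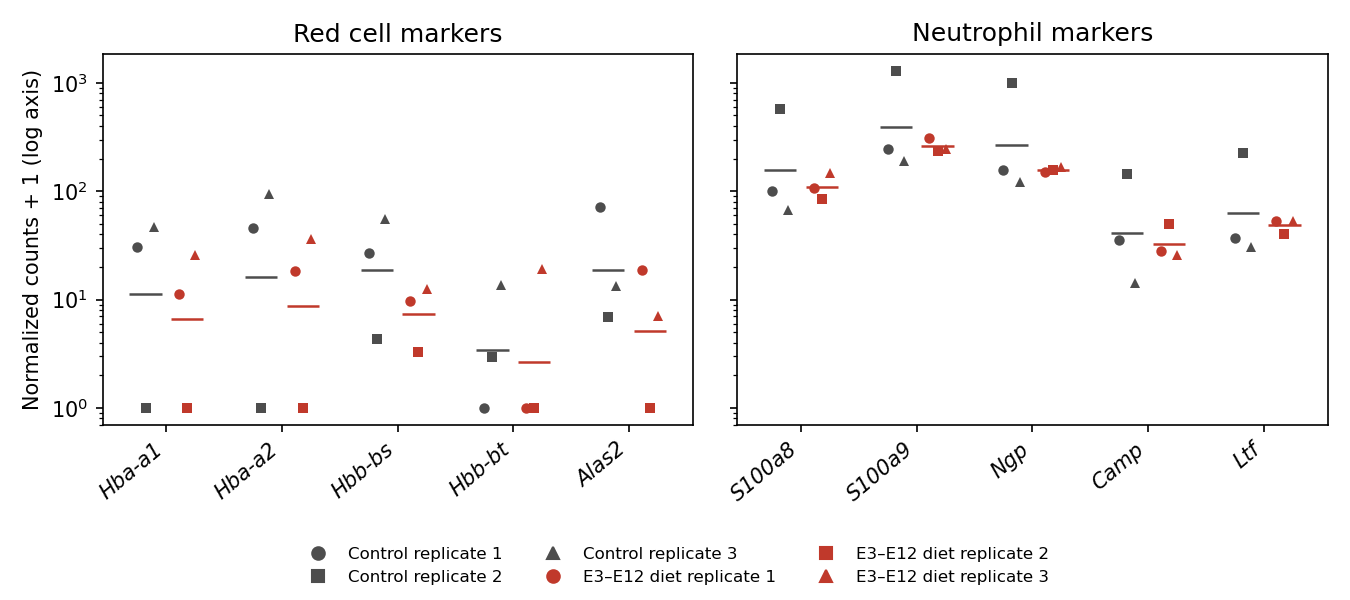
Normalized counts + 1 on a log axis for the 5 red cell genes and the 5 neutrophil genes in each library, with control libraries in gray and E3–E12 diet libraries in red. Symbols give the replicate number and lines the mean of log2(normalized count + 1) per diet. Replicate 2 of both diets is lowest, tied at 0 where listed so, for the alpha chain genes, Hbb-bs and Alas2, and control replicate 2 is highest for all 5 neutrophil genes.

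Control replicate 2 was at least 2-fold above the next library for all 5 neutrophil genes, as it was for 11.1% of the 18007 genes tested. In 3 of the 5, S100a9, Ngp and Ltf, the remaining 5 libraries spanned less than 2-fold, as in 14.2% of genes tested. Summed over the 5 genes, neutrophil counts were 572, 3224 and 419 in the controls and 642, 562 and 634 in E3–E12 diet mice. The control mean was 1405 ± 1577 and the E3–E12 diet mean 613 ± 43.6 (SD, n = 3 each), so the spread among controls exceeded the difference between diets. The makeup of the sum was similar in the 6 libraries. S100a9 made up 38.9% to 48.0% of it, Ngp 23.3% to 30.9%, S100a8 15.05% to 22.9%, Ltf 6.37% to 8.22% and Camp 3.16% to 8.61%. Per kilobase of exon, mean levels ran in the order S100a9 (802 normalized counts), S100a8 (258), Ngp (238), Camp (63.6) and Ltf (20.9). On the same scale the red cell genes stood at 47.7 for Hba-a2, 23.0 for Hbb-bs, 22.6 for Hba-a1, 7.77 for Alas2 and 7.74 for Hbb-bt. The ranges of S100a8 and Ngp over libraries overlapped widely, as did those of all 5 red cell genes.

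Control replicate 2 also had the highest share of microglia counts, and its position for the neutrophil genes depended on the scaling. With each library set to the same total, 4 of the 5 neutrophil genes were at least 2-fold above the next library there, against 5.81% of all genes. With each library set to the same sum over the 20 microglia genes, 0 of the 5 were, against 2.08% of all genes. Control replicate 2 was then the highest library for 2 of the 5, against 6.15% of all genes. Per 1000 counts of the microglia genes, the neutrophil sum was 3.75, 4.86 and 1.01 in the controls and 4.29, 1.65 and 1.26 in E3–E12 diet mice. On that scale control replicate 1 and E3–E12 diet replicate 1 lay close to control replicate 2. For the red cell genes, 4 of the 5 had the replicate 2 libraries of both diets as the 2 lowest under each scaling, against 12.3% of all genes with equal totals and 13.7% with equal microglia sums. Per 1000 microglia counts, the red cell sum was 1.11, 0.0169 and 0.527 in the controls and 0.361, 0.00680 and 0.191 in E3–E12 diet mice. On that scale the sum was highest in control replicate 1 instead of control replicate 3, and E3–E12 diet replicate 1 exceeded replicate 3. The part of microglial yield and library depth in these values was not tested.

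Of 14 tested neutrophil genes outside the members, 5 were at least 2-fold above the next library in control replicate 2, against 11.1% of all genes tested. Of 9 further secondary granule genes, 7 were above the minimum for testing, and 4 of these were at least 2-fold above the next library in control replicate 2. The highest by mean was Lcn2, which binds bacterial siderophores, at 89.8, 505 and 87.7 normalized counts in the controls and 113, 82.7 and 91.4 in E3–E12 diet mice. Mmp8, the neutrophil collagenase, was measured at 52.7, 300 and 23.2 in the controls and 74.8, 41.6 and 54.9 in E3–E12 diet mice. Cd177 and Chil3, named after their values were seen, were the other 2, with 91.4 and 160 in control replicate 2. Mmp9 was 92.6 there but 87.9 in E3–E12 diet replicate 2, and Olfm4 was highest in E3–E12 diet replicate 2, at 81.0. Pglyrp1, which encodes a peptidoglycan-binding protein, was highest in control replicate 3 instead, at 171, and was lower in all E3–E12 diet libraries than in any control. Its exact permutation p was 0.1, the smallest that 3 against 3 libraries allows, and 5.9% of genes tested had diets that did not overlap. With libraries set to the same total, 3 of the 7 kept a 2-fold lead of control replicate 2 (5.81% of all genes), and with the same microglia sum 1 did (2.08%).

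Genes of mature neutrophils did not share 1 pattern. Of 15, 6 were above the minimum for testing and 8 were listed at 0 in at least 1 library. Retnlg, a resistin-like protein of mature neutrophils, was measured at 48.5, 389 and 52.8 in the controls and 58.4, 59.7 and 45.3 in E3–E12 diet mice, with control replicate 2 highest. Csf3r, the receptor for granulocyte colony-stimulating factor, was measured at 3282, 4844 and 7143 in the controls and 1679, 6423 and 8466 in E3–E12 diet mice. Microglia also express this receptor, and its highest library was E3–E12 diet replicate 3. Cxcr2, the chemokine receptor that releases neutrophils from the marrow, was measured at 173, 241 and 187 in the controls and 335, 112 and 71.0 in E3–E12 diet mice. Ly6g, the gene behind the antibody most used to identify mouse neutrophils, was near or at 0, at 0.819, 5.66 and 0 in the controls and at 1.14, 0 and 0 in E3–E12 diet mice.

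E3–E12 diet replicate 1 was the highest library for 4 of the 14 neutrophil genes outside the members that were tested, near the background of 22.7% of all genes tested. Of the 5 primary granule genes 3 had a row, and 1 of these, Mpo, was above the minimum for testing. Mpo, the myeloperoxidase of primary granules, was measured at 34.8, 19.2 and 10.7 in the controls and 172, 76.0 and 13.7 in E3–E12 diet mice. Prtn3 and Elane, serine proteases of the same granules that are made early in neutrophil development, reached 47.2 and 12.4 in E3–E12 diet replicate 1 and were at or below 7.16 and 1.13 elsewhere. A pair of genes named after their values were seen was also highest there. Il1r2, a decoy receptor for interleukin 1, was measured at 63.5 there and at 1.13 or less elsewhere. Trem1, an activating receptor of neutrophils and monocytes, was measured at 174 there and at 15.6 or less elsewhere. Il1r2 and Trem1 reached the minimum for testing only through that library, so the filter fixed their place among the 4 counted.

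**Figure D2:**
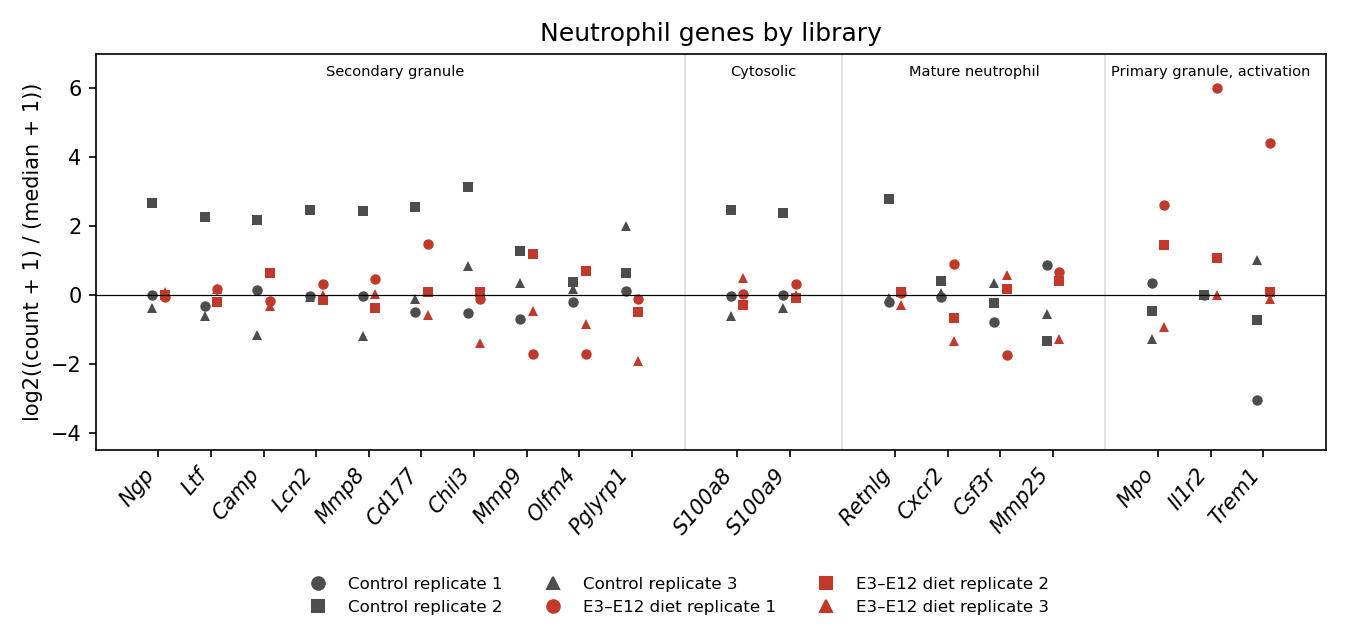
Neutrophil genes in each library as log2 of (normalized count + 1) over (the gene's median over the 6 libraries + 1), grouped by granule or stage, with control libraries in gray and E3–E12 diet libraries in red. Control replicate 2 is highest for Ngp, Ltf, Camp, Lcn2, Mmp8, Cd177, Chil3, Mmp9, S100a8, S100a9 and Retnlg, and E3–E12 diet replicate 1 for Cxcr2, Mpo, Il1r2 and Trem1.

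The regions upstream of the members were searched for short motifs of factors that act in these lineages, in the 250 bases before each RefSeq start and on both strands. The letters TTNNGNAA, a loose form of the C/EBP motif, occurred in 4 of the 5 neutrophil genes (all but Camp) and in 3 of the 5 red cell genes, against 36.9% of 32851 promoters. CACCC, read by KLF factors, occurred in all 5 red cell genes and in 3 of the 5 neutrophil genes, against 52.0% of promoters. CCAAT occurred in 4 of the 5 red cell and 2 of the 5 neutrophil genes, against 33.9%. The GATA motif AGATAA occurred in 2 of each 5, against 9.99%. The PU.1 motif GAGGAAG occurred in 1 of each 5, against 10.6%. None of these motifs thus separated the 2 groups of genes. A stretch of 120 upstream bases is shown for 3 neutrophil genes that were highest together in control replicate 2, with TTNNGNAA matches on either strand in capitals. All are from the plus strand of GRCm38.p6 in RefSeq, at chr3:90668858-90668977 for S100a8, chr9:110419627-110419746 for Ngp and chr9:111019151-111019270 for Ltf, and each ends before the first annotated base of its gene.
S100a8: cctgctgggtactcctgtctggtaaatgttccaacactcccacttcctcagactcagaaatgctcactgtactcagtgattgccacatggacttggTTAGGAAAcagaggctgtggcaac
Ngp: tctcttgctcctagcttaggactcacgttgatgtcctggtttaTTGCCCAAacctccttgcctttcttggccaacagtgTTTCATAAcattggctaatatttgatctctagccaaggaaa
Ltf: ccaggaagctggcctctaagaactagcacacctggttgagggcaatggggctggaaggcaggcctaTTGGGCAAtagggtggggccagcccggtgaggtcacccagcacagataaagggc

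As a sum, other red cell genes did not follow the globins. Of 20 genes of the red cell membrane and of erythroid factors, 15 had a row and 10 were above the minimum for testing. Their sum was 1470, 712 and 825 normalized counts in the controls and 1414, 1452 and 1093 in E3–E12 diet mice. The highest were Sptb and Ank1, spectrin and ankyrin genes of the membrane skeleton that neurons also express, and Ermap. Sptb was measured at 465, 91.9 and 142 in the controls and 308, 319 and 331 in E3–E12 diet mice. Klf1, the factor that drives adult beta globin, was low, at 4.63, 0 and 10.3 in the controls and 2.25, 0 and 0 in E3–E12 diet mice. On the authors' scaling its highest library was control replicate 3, as for Hba-a1, Hba-a2 and Hbb-bs. Hemgn, a nuclear protein of erythroid cells that was named after its values were seen, was higher in all E3–E12 diet libraries than in any control, at 13.1, 0 and 8.08 against 47.5, 19.1 and 22.7. Its exact permutation p was 0.1, the smallest possible, and 5.9% of genes tested had diets that did not overlap. Of 6 embryonic globins 3 had a row, and none reached the minimum for testing. Hbb-bh1 was listed at 22.7 in E3–E12 diet replicate 1, where Hba-a2 was 17.2, and at 0 elsewhere. Hbb-y did not exceed 2.75 in any library, nor Hba-x 2.27.

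Many of the genes that make heme or handle hemoglobin are also expressed by microglia or other brain cells, and all were measured here. All 11 genes of heme synthesis were tested, Alas2 included. Slc25a37, which brings iron into mitochondria, was the highest by mean count, at 729, 3702 and 1785 normalized counts in the controls and 648, 1386 and 1578 in E3–E12 diet mice. Alas1, the form of the first enzyme used outside the red cell lineage, was measured at 639, 131 and 768 in the controls and 704, 1556 and 1106 in E3–E12 diet mice. Per kilobase of exon Alas1 averaged 132 and Alas2 7.77. Ppox, a late enzyme of the pathway, averaged 115 on that scale. Of 10 genes of hemoglobin clearance, 9 were tested. Hmox1, which opens the heme ring, was measured at 1290, 4385 and 2460 in the controls and 1329, 3989 and 1445 in E3–E12 diet mice. Lrp1, the receptor for the heme-hemopexin complex among many other ligands, and Slc40a1, the iron exporter, were the other leading genes. Of the 4 receptors for S100a8 and S100a9 that were followed, Bsg was the highest at 6368 or more in every library, and Tlr4 and Cd36 were next.

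Genes of other cells did not move as 1 with either group of blood genes. Border macrophage genes, 7 of 7 measured, summed to 6019, 21060 and 8308 normalized counts in the controls and 5645, 9372 and 9847 in E3–E12 diet mice, with Mrc1 the most abundant. Control replicate 2 was highest there too. Endothelial genes, 10 of 10 measured, summed to 16467, 5432 and 15467 in the controls and 15657, 10216 and 16172 in E3–E12 diet mice, with Flt1 the most abundant. The replicate 2 libraries of both diets had the lowest endothelial sums, as they had the lowest red cell sums. In 5 of the 10 genes these libraries were the 2 lowest, against 11.5% of all genes tested. Flt1 was 95.4 and Vwf 26.3 in control replicate 2, the lowest library for both, whereas Cldn5 and Pecam1 were highest there, Pecam1 at 3154. Choroid plexus genes, 7 of 7 measured and led by Ttr, summed to 7339, 574 and 19145 in the controls and 40789, 58.0 and 539 in E3–E12 diet mice. Astrocyte genes, led by Slc1a2, summed to 8896, 1731 and 5377 in the controls and 9119, 4238 and 4576 in E3–E12 diet mice. The replicate 2 libraries were the 2 lowest for this sum too, and for 2 of the 6 genes. Neuron genes, led by Map2, summed to 2865, 2109 and 1268 in the controls and 3051, 1567 and 1261 in E3–E12 diet mice. Oligodendrocyte genes, led by Mbp, summed to 42918, 17009 and 4994 in the controls and 16497, 23327 and 5882 in E3–E12 diet mice. Whether vessel or other tissue content has a part in the values of the blood genes was not tested.

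The diet comparison passed no gene. Testing used limma, two-sided, on log2(normalized count + 1) for the 18007 genes whose mean reached 10, with p adjusted after Benjamini and Hochberg and a threshold of 0.1. The test called 0 genes (0%), with a smallest adjusted p of 0.225, and 327 genes had an unadjusted p under 0.05. Of the members, 9 were tested and 0 were called. Differences are E3–E12 diet minus control on that log2 scale, which understates changes of low genes. For the red cell genes they were −0.77 (SE 1.82) for Hba-a1, −0.90 (SE 2.07) for Hba-a2, −1.33 (SE 1.09) for Hbb-bs and −1.87 (SE 1.34) for Alas2. For the neutrophil genes they lay between −0.34 for Camp and −0.75 for Ngp, with SEs of 0.85 to 0.94. The adjusted limma p was 0.999 for each of the 9. The exact permutation p of a single gene lay between 0.4 and 1, where the smallest that 3 against 3 libraries allows is 0.1. The diets overlapped in all 9, and were without overlap in 5.9% of genes tested. The median difference was −1.11 over the 4 red cell genes tested and −0.52 over the 5 neutrophil genes, beside 0.087 over all genes.

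Single libraries set the direction of several of these differences. Without control replicate 2 the differences of the neutrophil genes were positive, at 0.42 for S100a8, 0.27 for S100a9, 0.20 for Ngp, 0.55 for Camp and 0.52 for Ltf. Without it the red cell differences grew to −2.52 for Hba-a1, −2.91 for Hba-a2, −2.38 for Hbb-bs and −2.59 for Alas2, and limma again called 0 genes, with 425 under an unadjusted p of 0.05. The alpha chain genes turned positive without control replicate 3, at 0.25 for Hba-a1 and 0.38 for Hba-a2, and without E3–E12 diet replicate 2, at 0.59 and 0.67. Hbb-bs and Alas2 were lower in E3–E12 diet mice with any library left out, between −2.38 and −0.54 for Hbb-bs and between −2.82 and −0.70 for Alas2.

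None of the related lists held a gene past the threshold with limma. The paper's own DESeq2 analysis, at the same threshold, did report genes of these lists. Among them were Vwf, Flt1 and Ly6c1 as higher and Ttr as lower in E3–E12 diet mice. The differences of the secondary granule genes outside the members were negative for 7 of 7 tested, against 45.6% of all genes tested, with a median of −0.73. The diets overlapped in all of them but Pglyrp1. Control replicate 2 was the highest library for 5 of these 7 genes, against 26.3% of all genes tested. Its part in their differences was not tested. The 6 tested genes of mature neutrophils divided 3 to 3, with a median of 0.083, and Mpo, the only primary granule gene tested, stood at 1.51. Red cell membrane and factor genes had 7 positive and 3 negative differences, with a median of 0.63, opposite in sign to the globins. Heme synthesis had 4 positive and 7 negative differences (median −0.41), hemoglobin clearance 2 and 7 (median −0.29) and the receptors 1 and 3 (median −0.42). Microglia genes had 1 positive and 19 negative differences, with a median of −0.28. Border macrophage genes had 1 and 6 (median −0.38), endothelial genes 7 and 3 (median 1.36), choroid plexus genes 1 and 6 (median −1.42), neuron genes 4 and 4 (median 0.31), astrocyte genes 6 and 0 (median 0.89) and oligodendrocyte genes 1 and 5 (median −0.39).

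Likeness was measured as Pearson's r of log2(normalized count + 1) over the 6 libraries, as a description of libraries that differ in depth. The genes most like the mean of the red cell genes were 2700097O09Rik (r = 0.992), Sars2 (0.986), Cct2 (0.984), Cacnb2 (0.984) and Gm15915 (0.981). Sars2, a mitochondrial seryl-tRNA synthetase, was measured at 71.3, 21.8 and 77.3 in the controls and 40.8, 15.7 and 75.7 in E3–E12 diet mice. An r above 0.9 was found for 147 genes, 0.817% of those tested, and the other red cell genes had a median r of 0.14. With the red cell mean, the median r was 0.49 over endothelial genes, −0.066 over microglia genes and −0.37 over border macrophage genes. The genes most like the mean of the neutrophil genes were Cdc20 (r = 0.999), Gm17281 (0.996), Myo5a (0.996), Kxd1 (0.993) and Rab34 (0.992). Cdc20, which activates the anaphase-promoting complex in dividing cells, was measured at 34.7, 844 and 17.7 in the controls and 38.4, 36.5 and 36.8 in E3–E12 diet mice. Myo5a, a myosin that carries vesicles, was measured at 2184, 9974 and 1752 in the controls and 2485, 2668 and 2661 in E3–E12 diet mice. An r above 0.9 was found for 677 genes, 3.76% of those tested. With the neutrophil mean, the median r was 0.25 over the 14 other neutrophil genes tested. It was 0.76 over those of secondary granules and −0.10 over those of mature neutrophils, and Mpo had an r of −0.10. The median r was 0.72 over border macrophage genes, 0.34 over microglia genes and −0.92 over endothelial genes. Control replicate 2 was the highest library for each of the 5 genes most like the neutrophil mean.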

How the data were processed

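RNA-seq of 3 control and 3 E3–E12 diet libraries was used. The deposited signal was normalized counts per gene, which the authors made with FastQC, STAR, featureCounts and DESeq2 on GRCm38, per the submitters' processing notes without versions. The table's name mentions surrogate variables, whose role is not stated. Read length was 50 bases in the methods and 75 in the labels. Whole reads could not be recovered, because scaling differed slightly between genes, so fragment numbers are estimates from the smallest steps of genes with 1 transcript.

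Symbols were matched for 26507 of 26789 genes. Positions, exon lengths and 50-base windows came from GENCODE for GRCm38. Genes with a mean of at least 10 were tested with limma 3.58.1 in R 4.3.3 on log2(value + 1). The limma script was run on simulated data that had less spread than these libraries, so that run does not show its power here. Single genes were also tested by an exact permutation of 20 arrangements. From each of the 19 lists of red cell, neutrophil, other blood and brain genes outside the members, the 3 genes highest by mean were named, as were the 5 genes most like each group of members. Members and lists were chosen with earlier results of these data known. Lists were described by counts and medians, with no test. Alternatives were other pseudocounts, filters, scalings, a trend, a replicate block and leaving out each library.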

Additional observations from a re-analysis of the deposited data

How the results depend on the processing

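Limma called 0 genes, and 0 members, under all alternatives but 1. With a mean of at least 50, 12973 genes were tested and 1 was called, Prdm4 (limma, adjusted p = 0.060), listed at 0 in all E3–E12 diet libraries. Genes with an unadjusted p under 0.05 numbered 144 with equal microglia sums, 261 with equal totals, 491 with quantile normalization and 550 without control replicate 1. The lowest adjusted p of a member over the alternatives was 0.869. Whole reads could not be recovered, so edgeR and DESeq2 were not run.

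Of 148 member values under alternatives, 130 kept the sign and 18 did not, and all 18 left out a library. Leaving out each library in turn gave −2.52 to 0.59 for Hba-a1, −2.91 to 0.67 for Hba-a2, −1.13 to 0.42 for S100a8, −1.11 to 0.27 for S100a9, −1.33 to 0.20 for Ngp, −1.11 to 0.55 for Camp and −0.92 to 0.52 for Ltf. The cause of the reversals of Hba-a1 and Hba-a2 was not tested. The 2 fits that joined a scaling with the loss of control replicate 2 were added after the data were seen. With equal totals, that fit gave 0.31 for S100a8, 0.17 for S100a9, 0.092 for Ngp, 0.45 for Camp and 0.41 for Ltf. With equal microglia sums it gave 0.19, 0.048, −0.03, 0.32 and 0.30. In these neutrophil reversals the absence of control replicate 2 is the only change shared. The summed red cell genes differed by −1.57 on the log2 scale and by −2.90 to −0.080 with a library left out, and the summed neutrophil genes by −0.58 and by −1.15 to 0.32. Equal totals moved the median difference of all genes from 0.087 to 0.20, and equal microglia sums to 0.31.

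With the replicate number as a block, limma called 0 genes (lowest adjusted p = 0.980), while 468 genes had p under 0.05 before adjustment. Among the members, p was under 0.05 before adjustment for Alas2 with the block and with quantile normalization. It was so for Hbb-bs with quantile normalization and in the 3 fits without control replicate 2, which are the planned fit and the 2 joined with a scaling. The adjusted p of these fits was at least 0.980 for both genes. Same-numbered libraries of the diets deviated together with correlations across genes of 0.26, 0.035 and 0.14, and control replicate 2 correlated best with E3–E12 diet replicate 3 (0.087), so the numbers were not taken to pair the libraries. For the globins in the replicate 2 libraries, a value of 0 or 2 normalized counts is at most a few fragments.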

Other observations

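Genes of other blood cells were also measured, and none passed the threshold. Monocyte genes, 8 of 9 with a row, summed to 2892, 11561 and 2870 normalized counts in the controls and 5130, 4402 and 2385 in E3–E12 diet mice. Vcan led at 7286 in control replicate 2 and 2734 or less elsewhere, ahead of F13a1 and Ace, and of the 6 tested 3 were positive and 3 negative. Platelet genes, 12 of 13 with a row, summed to 846, 1498 and 1159 in the controls and 802, 1065 and 984 in E3–E12 diet mice, led by Itgb3, Gp9 and Gp1bb, with 6 positive and 4 negative differences. Pf4, a platelet chemokine that border macrophages also express, was named after its values were seen. It was 30.5, 36.5 and 173 in the controls and 2.25, 20.3 and 12.3 in E3–E12 diet mice (exact permutation p = 0.1, the smallest possible). The diets did not overlap for Pf4, as for 5.9% of genes tested.

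B cell genes summed to 3019, 8933 and 6852 in the controls and 2820, 4385 and 8655 in E3–E12 diet mice, led by Ighm, Ebf1 and Cd79b. Of the 4 tested, 1 was positive and 3 negative. T and NK cell genes summed to 511, 2385 and 557 in the controls and 1374, 1211 and 888 in E3–E12 diet mice, with 5 positive and 1 negative difference. Cd3d, a chain of the T cell receptor complex, was 284, 2021 and 135 in the controls and 639, 292 and 287 in E3–E12 diet mice, with control replicate 2 highest as for the neutrophil genes. Its partner Cd3g was 20.1, 7.94 and 8.09 in the controls and 66.9, 300.1 and 13.3 in E3–E12 diet mice. Cd3e, Cd8a and Lck were listed at 0 in control replicate 2. That library was thus highest for 1 of the 6 T and NK cell genes tested, Cd3d. Cd4 was 189, 356 and 370 in the controls and 565, 561 and 540 in E3–E12 diet mice. Every E3–E12 diet library was above every control (exact permutation p = 0.1, the smallest possible), and 5.9% of genes tested had diets that did not overlap.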
